A study of Mus musculus with 12 samples.

Results

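The 8 genes described here are *Ch25h*, which encodes cholesterol 25-hydroxylase, 6 enzymes of cholesterol synthesis (*Hmgcs1*, *Idi1*, *Fdft1*, *Sqle*, *Lss* and *Cyp51*) and *Insig1*, a sterol-responsive regulator of the same pathway. They were taken by symbol from the 23997 genes listed in each library, and all 8 were among the 10581 genes with at least 1 FPKM (fragments scaled to transcript length and library size) in at least 3 libraries. RNA-seq was performed on bone marrow-derived macrophages (BMDMs), macrophages grown for 7 d from marrow cells with human M-CSF at 10 ng/ml. The marrow came from male C57BL/6 mice aged 8 to 10 weeks, either WT or Pim1-/-, the latter made with CRISPR/Cas9 and carrying a deletion of exons I-V of *Pim1*, which encodes a serine/threonine kinase. There were 12 libraries in 4 groups of 3, untreated WT, untreated Pim1-/-, WT given LPS at 100 ng/ml for 4 h and Pim1-/- given LPS in the same way. LPS, a bacterial cell wall component, activates Toll-like receptor 4. The deletion was present in every cell from which the Pim1-/- macrophages grew, and the sources used here do not give whether the libraries of a group came from separate mice or cultures, so the p-values below measure the spread between these libraries, which may be technical.

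Cells make cholesterol from acetyl-CoA through mevalonate, isoprenoid units, squalene and lanosterol. The transcription factor SREBP-2 drives the genes of this route and of sterol uptake. When sterols are scarce, its escort SCAP carries it from the endoplasmic reticulum to the Golgi apparatus for cleavage, and when sterols are abundant, INSIG proteins hold SCAP and SREBP-2 back. *Insig1* is itself a target of SREBP-2, so its RNA is often read as a gauge of the pathway. Ch25h converts cholesterol to 25-hydroxycholesterol, an oxysterol that binds INSIG and lowers SREBP-2 processing. In macrophages *Ch25h* is known as an interferon-stimulated gene, and 25-hydroxycholesterol as an antiviral lipid.

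In the mouse assembly GRCm38 with GENCODE M21, *Ch25h* is a gene of 1 exon on chromosome 19 (chr19:34473778-34475164, minus strand). *Hmgcs1* (chr13:119690379-119708260, plus strand), *Idi1* (chr13:8885501-8892451, plus strand), *Sqle* (chr15:59315077-59331192, plus strand), *Lss* (chr10:76531588-76557138, plus strand) and *Insig1* (chr5:28071363-28078662, plus strand) are spliced genes. *Fdft1* (chr14:63145150-63179578, minus strand) and *Cyp51* (chr5:4081145-4104746, minus strand) share exonic bases with a protein-coding gene on the other strand. For *Fdft1* this is 774 of 4227 exonic bases, shared with *Ctsb*, a cathepsin gene whose means were 3451, 2485, 3002 and 2478 FPKM in untreated WT, untreated Pim1-/-, LPS-treated WT and LPS-treated Pim1-/- cells. The libraries were stranded, but the sources used here do not give the strand setting of the counting, so the values of *Fdft1* are uncertain. For *Cyp51* it is 166 of 4415 exonic bases, shared with *Akap9*, whose means were 2.46 to 3.78 FPKM. *Ch25h* (159 of 1387 bases), *Hmgcs1* (557 of 4594), *Idi1* (323 of 3505) and *Lss* (381 of 10787) overlap with genes not annotated as protein-coding, also on the other strand. The partners of *Ch25h*, *Hmgcs1* and *Idi1* were not among the genes listed, and that of *Lss* had means of 0 to 0.084 FPKM.

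The promoters of these genes are shown because most of the sterol genes were lower together in LPS-treated Pim1-/- cells, whereas *Ch25h* shared this order but not that of the untreated cells. RefSeq promoters of GRCm38.p6, 300 bases each (250 before and 50 after the start), matched 6 of the 8 genes, and not *Sqle* or *Fdft1*. The 250 bases before the start are printed for *Hmgcs1*, an early step of the route, *Cyp51*, which had the largest log2 difference between genotypes after LPS among the 6 enzymes, *Insig1* and *Ch25h*. Capitals mark matches to the motifs named after the sequences, which read 5' to 3' on the gene's strand.
Hmgcs1 (chr13:119690101-119690350, plus strand): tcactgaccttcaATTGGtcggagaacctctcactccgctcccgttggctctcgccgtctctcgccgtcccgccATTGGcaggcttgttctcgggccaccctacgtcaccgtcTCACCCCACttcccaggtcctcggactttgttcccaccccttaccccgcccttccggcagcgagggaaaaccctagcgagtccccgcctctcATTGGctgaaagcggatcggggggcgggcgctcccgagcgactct
Cyp51 (chr5:4104698-4104947, minus strand): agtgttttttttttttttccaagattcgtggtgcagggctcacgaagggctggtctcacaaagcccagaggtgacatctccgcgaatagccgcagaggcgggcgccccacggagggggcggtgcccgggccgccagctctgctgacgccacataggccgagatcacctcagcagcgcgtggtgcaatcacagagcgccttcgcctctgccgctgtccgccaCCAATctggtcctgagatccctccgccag
Insig1 (chr5:28071162-28071411, plus strand): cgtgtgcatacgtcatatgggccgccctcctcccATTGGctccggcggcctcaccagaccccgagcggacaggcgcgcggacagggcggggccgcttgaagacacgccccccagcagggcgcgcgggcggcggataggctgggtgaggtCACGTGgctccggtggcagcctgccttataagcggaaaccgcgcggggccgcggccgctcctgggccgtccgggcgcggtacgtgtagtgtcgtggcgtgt
Ch25h (chr19:34475149-34475398, minus strand): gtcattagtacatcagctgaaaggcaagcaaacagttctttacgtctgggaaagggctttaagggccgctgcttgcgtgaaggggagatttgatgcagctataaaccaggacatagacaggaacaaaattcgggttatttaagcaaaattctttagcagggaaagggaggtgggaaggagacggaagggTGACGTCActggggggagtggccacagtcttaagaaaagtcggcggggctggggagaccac

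Both strands of each 300-base promoter were searched for 7 motifs, chosen after these promoters had been read. The core of the sterol regulatory element (TCACNCCAC), which SREBP binds, stood in *Hmgcs1* alone among the 6 genes, at -137 from the start, and in 1.24% of 32851 promoters. The NF-Y box (CCAAT), bound by a factor that works beside SREBP, stood in the promoters of *Hmgcs1*, *Idi1*, *Lss*, *Cyp51* and *Insig1*, or 5 of 6. Of a list of cholesterol synthesis genes 16 were matched, and 15 of them held the box in any of their promoters. Counted per promoter and not per gene, 37.4% of all promoters held it. *Hmgcs1* held 4 matches, 3 of them before the start. The promoter of *Ch25h* held no NF-Y box and a cAMP response element (TGACGTCA), bound by CREB and ATF factors, at -61, which 1.79% of promoters held. An E box (CACGTG, 7.15% of promoters) stood at -101 in *Insig1*. No member held the letters searched for the interferon-stimulated response element (GAAA and GAAA with 2 bases of any kind between, 3.44% of promoters), the NF-kB site (GGGA and TTCC with 2 bases between, 1.47%) or the AP-1 site (TGANTCA, 7.81%) in this window. A match describes the letters only.

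*Pim1* was lower in each Pim1-/- library than in each WT library, at 8.00 to 9.51 against 21.5 to 25.0 FPKM without treatment and 205 to 236 against 630 to 665 FPKM after LPS, and the values of whole genes do not show the deleted exons apart. The sum of all FPKM was 452511 to 489710 in untreated libraries, 713307 to 743912 in LPS-treated Pim1-/- and 837585 to 849323 in LPS-treated WT libraries, so results of LPS are also given below with equal sums. The macrophage identity of the cells was checked on 10 markers, all expressed, with the lysozyme gene *Lyz2* at means of 26302 (WT) and 13297 FPKM (Pim1-/-) without treatment and 26785 and 13680 FPKM after LPS. All 10 were lower in Pim1-/- cells after LPS at an FDR under 0.05, as were 41.7% of all genes, and their median log2 difference was -0.88. The sum of 20 cell cycle genes was 177 to 192 FPKM in untreated WT and 1064 to 1147 in untreated Pim1-/- libraries, and 368 to 373 and 764 to 850 FPKM after LPS. *Pcna* was the largest part of these sums, with means of 110, 434, 313 and 546 FPKM in the same order. By the thresholds given below, 7 of the 20 were called lower with LPS in WT cells (14.7% of all genes) and 2 higher (20.1%). Their median log2 fold change there was -0.60. Against WT, 19 of the 20 were called higher in Pim1-/- cells without LPS (4.4% of all genes) and 17 after it (3.51%). Summed markers of erythroid cells, of mast cells with basophils, of B cells and of T with NK cells stayed under 1.6 FPKM in every library, and *Cd3e*, *Cd3g*, *Ncr1*, *Pax5* and *Hba-a1* were listed at 0 throughout. Summed markers of dendritic cells were 3.02 to 3.32 FPKM in untreated WT and 1.39 to 1.83 in untreated Pim1-/-, and 4.84 to 5.60 and 2.11 to 2.32 FPKM after LPS. Those of stromal cells were 1.92 to 2.22 and 0.59 to 0.72 FPKM without LPS and 2.86 to 3.08 and 0.95 to 1.06 FPKM with it, so both sums were low and lower in Pim1-/- cells. Those of neutrophils were 1.57 to 1.87 and 3.23 to 4.21 FPKM without LPS and overlapped after it, at 6.04 to 8.22 and 3.59 to 6.13 FPKM. The part of the cell cycle, macrophage and other marker genes in the differences between genotypes was not tested, and in bulk RNA fewer cells of a type and less RNA per cell cannot be told apart.

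*Ch25h* was close to silent in untreated cells. The untreated WT libraries held 0.274, 0.236 and 0.392 FPKM and the untreated Pim1-/- libraries 0.658, 0.881 and 0.781 FPKM. With LPS the WT libraries held 93.8, 81.9 and 85.0 FPKM and the Pim1-/- libraries 24.7, 22.3 and 23.5 FPKM. None of the 4 groups overlapped with another, and their order from low to high was untreated WT, untreated Pim1-/-, LPS-treated Pim1-/- and LPS-treated WT. The group means rose 289-fold with LPS in WT and 30.4-fold in Pim1-/- cells as ratios of FPKM. The low levels rested on few fragments, estimated at 11.3 to 20.6 per library in untreated WT and 35.8 to 41.9 in untreated Pim1-/- cells, against 673 to 2620 after LPS, so the ratio in WT is less precise than the levels after LPS.

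*Hmgcs1* encodes HMG-CoA synthase, an enzyme of the mevalonate pathway. Its level was 25.4, 26.8 and 22.4 FPKM in untreated WT, 16.4, 16.4 and 16.2 FPKM in untreated Pim1-/-, 76.4, 80.1 and 78.1 FPKM in LPS-treated WT and 23.9, 25.0 and 25.1 FPKM in LPS-treated Pim1-/- libraries. The LPS-treated Pim1-/- libraries lay within the range of the untreated WT libraries, and the LPS-treated WT libraries stood far above both. *Idi1* encodes the isomerase that interconverts the 5-carbon isoprenoid units. It held 18.3, 21.3 and 16.6 FPKM in untreated WT, 18.5, 18.7 and 16.5 FPKM in untreated Pim1-/-, 79.5, 86.6 and 79.4 FPKM in LPS-treated WT and 26.4, 28.4 and 23.1 FPKM in LPS-treated Pim1-/- libraries. The untreated genotypes overlapped and both LPS groups lay above them.

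*Fdft1* encodes squalene synthase, the first enzyme that leads only to sterols. Its level was 105, 110 and 106 FPKM in untreated WT, 55.6, 55.6 and 59.4 FPKM in untreated Pim1-/-, 89.3, 92.3 and 90.7 FPKM in LPS-treated WT and 46.4, 48.0 and 50.3 FPKM in LPS-treated Pim1-/- libraries. The groups did not overlap, the Pim1-/- mean was 53.0% of the WT mean without LPS and 53.1% after it, and LPS moved neither genotype far. *Sqle* encodes squalene epoxidase, a rate-limiting step after squalene. It held 12.8, 14.6 and 12.5 FPKM in untreated WT, 12.3, 12.8 and 12.8 FPKM in untreated Pim1-/-, 18.3, 20.0 and 17.8 FPKM in LPS-treated WT and 5.40, 5.16 and 5.30 FPKM in LPS-treated Pim1-/- libraries. Untreated genotypes overlapped, the LPS-treated WT libraries were the highest and the LPS-treated Pim1-/- libraries the lowest. The log2 fold change with LPS in WT cells was 0.47, under 2-fold, and turned to -0.30 with equal sums.

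*Lss* encodes lanosterol synthase, which closes the sterol rings. Its level was 8.97, 8.90 and 8.44 FPKM in untreated WT, 5.38, 5.92 and 6.25 FPKM in untreated Pim1-/-, 6.06, 6.56 and 6.71 FPKM in LPS-treated WT and 2.80, 1.96 and 2.78 FPKM in LPS-treated Pim1-/- libraries. It was lower after LPS in both genotypes, and LPS-treated WT and untreated Pim1-/- libraries overlapped. *Cyp51* encodes lanosterol 14-alpha-demethylase, the next enzyme. It held 14.2, 15.4 and 12.5 FPKM in untreated WT, 12.9, 13.4 and 12.3 FPKM in untreated Pim1-/-, 45.2, 45.7 and 44.3 FPKM in LPS-treated WT and 13.8, 13.9 and 12.0 FPKM in LPS-treated Pim1-/- libraries. Only the LPS-treated WT libraries stood apart, and the Pim1-/- libraries with and without LPS overlapped.

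*Insig1* was the most abundant of the 8 genes in LPS-treated WT cells by FPKM, with 93.3, 97.2 and 99.7 FPKM. The other groups held 37.3, 40.8 and 35.2 FPKM (untreated WT), 23.1, 23.7 and 22.8 FPKM (untreated Pim1-/-) and 37.0, 40.9 and 38.2 FPKM (LPS-treated Pim1-/-). LPS-treated Pim1-/- libraries thus overlapped with untreated WT libraries, as for *Hmgcs1* and *Cyp51*. The plot of the 8 genes by library shows these patterns side by side.

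**Figure D1:**
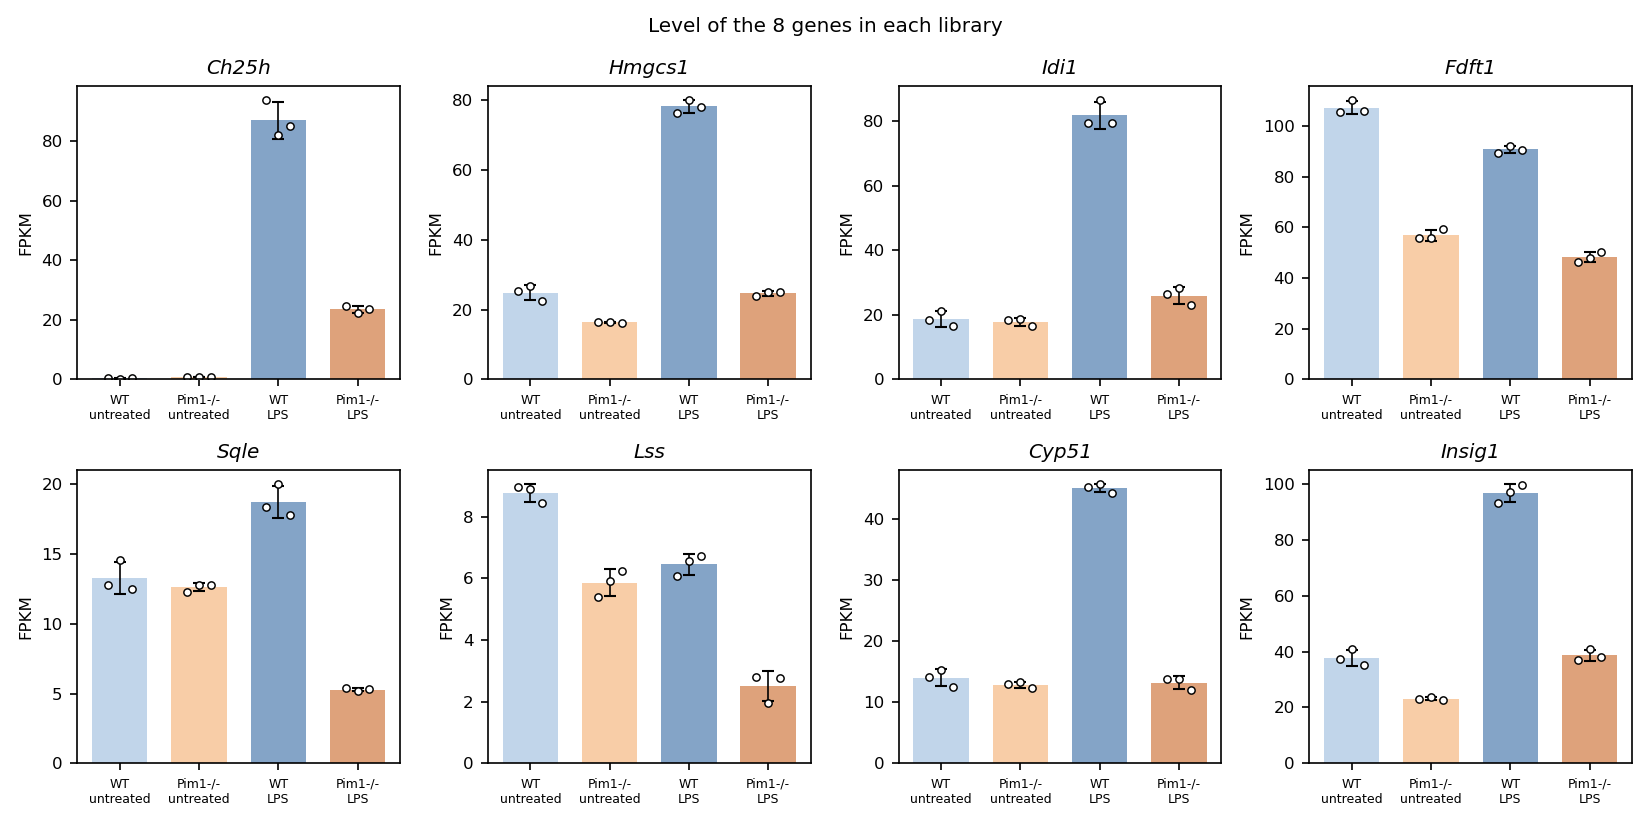
Level of each gene in FPKM (linear axis from 0, own scale per gene) in untreated WT, untreated Pim1-/-, LPS-treated WT and LPS-treated Pim1-/- BMDMs. Points are the 3 libraries of a group, bars the group mean and error bars 1 SD. In 6 of the 8 genes the LPS-treated WT bar is the highest, while *Fdft1* and *Lss* are highest in untreated WT cells.

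LPS in WT cells raised *Ch25h* and, among the genes of sterol synthesis, *Hmgcs1*, *Idi1*, *Cyp51* and *Insig1*. A gene was called changed at more than 2-fold with p under 0.05 and an FDR under 0.1 in limma on log2(FPKM + 1), with Benjamini-Hochberg adjustment over the 10581 genes. On this scale the change of weakly expressed genes comes out too small. Of the 8 genes 5 were called higher and 0 lower, where 20.1% of all genes were called higher and 14.7% lower. The log2 fold change of *Ch25h* was 6.08 (95% confidence interval 5.94 to 6.22, limma adjusted p = 7.49e-20). *Idi1* rose by 2.08 (1.90 to 2.26, limma adjusted p = 9.06e-13), *Cyp51* and *Hmgcs1* each by 1.62 and *Insig1* by 1.34 on the same scale. *Sqle*, *Fdft1* and *Lss* stayed under 2-fold, with log2 fold changes of 0.47, -0.24 and -0.39. With libraries scaled to equal sums the median of all genes moved to -0.67, the calls of *Hmgcs1* (0.83), *Cyp51* (0.84) and *Insig1* (0.54) were lost, *Sqle* turned to -0.30 and *Fdft1* (-1.04) and *Lss* (-1.10) were called lower, while *Ch25h* and *Idi1* remained called. At an FDR under 0.05 alone, 6 of the 8 genes were higher and 2 lower, against 44.9% and 44.5% of all genes.

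In Pim1-/- cells LPS raised *Ch25h* and lowered *Sqle*, and no other of the 8 genes was called. This is 1 called higher and 1 lower, where 14.6% of all genes were called higher and 10.4% lower. *Ch25h* rose by 3.79 on the log2 scale (3.65 to 3.93, limma adjusted p = 3.06e-17), and *Sqle* fell by 1.12 (limma adjusted p = 3.68e-11). *Hmgcs1*, *Idi1* and *Insig1* had log2 fold changes of 0.57, 0.51 and 0.71 and *Lss* one of -0.97, each with an FDR under 0.05 but under 2-fold. With that FDR alone 4 of the 8 genes were higher and 3 lower, against 42% and 42.6% of all genes. *Cyp51* had a log2 fold change of 0.04 (-0.11 to 0.18, limma adjusted p = 0.622), and *Fdft1* one of -0.23. With equal sums the median of all genes was -0.58, *Hmgcs1* (-0.07), *Idi1* (-0.12) and *Cyp51* (-0.58) turned to a lower level with LPS and *Lss* was called lower (-1.51). *Lss* was also called lower without 1 of 3 libraries, with values of -1.02, -1.03 and -1.03 without Pim1-/- untreated replicate 1, Pim1-/- LPS replicate 1 and Pim1-/- LPS replicate 3.

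Without LPS the genotypes differed by less than 2-fold on the log2(FPKM + 1) scale in all 8 genes, and none was called. Of all genes 4.4% were called higher and 3.37% lower in Pim1-/- cells. As a ratio of FPKM, *Ch25h* in untreated Pim1-/- cells was at 257% of the WT mean, from low values. By an FDR under 0.05 alone, with no fold required, *Fdft1* (log2 difference -0.90), *Insig1* (-0.68), *Hmgcs1* (-0.57) and *Lss* (-0.51) were lower and *Ch25h* (0.45, limma adjusted p = 2.07e-05) was higher in Pim1-/- cells, or 4 lower and 1 higher, against 42% and 32.7% of all genes. *Idi1* (-0.06), *Sqle* (-0.06) and *Cyp51* (-0.11) did not pass that threshold, with intervals of -0.24 to 0.12, -0.19 to 0.06 and -0.26 to 0.03. With a pseudocount of 0.1 the log2 difference of *Ch25h* was 1.14, which was called.

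After LPS 7 of the 8 genes were called lower in Pim1-/- than in WT cells and 0 higher, where 5.15% of all genes were called lower and 3.51% higher. *Ch25h* was at 27.0% of the WT mean, a log2 difference of -1.84 (-1.99 to -1.70, limma adjusted p = 1.79e-12). *Cyp51* was at 29.3% (-1.70), *Sqle* at 28.2% (-1.65), *Hmgcs1* at 31.5% (-1.63), *Idi1* at 31.7% (-1.62), *Insig1* at 40.0% (-1.30) and *Lss* at 39.0% (-1.09), given as the share of the WT mean in FPKM and the log2 difference. The limma adjusted p of these 6 genes was between 6.30e-13 and 9.81e-09. *Fdft1*, at 53.1% and -0.90 (-0.99 to -0.81), stayed under 2-fold. By an FDR under 0.05 alone all 8 were lower, against 41.7% of all genes, and 0 higher, against 35.7%. The median log2 difference of the 8 genes was -1.62, and that of all genes -0.03. For this difference the study displayed interferon-stimulated genes that were lower in the same Pim1-/- libraries. *Ch25h* is known as such a gene, so its direction here is not independent evidence. The call of *Lss* was lost without Pim1-/- LPS replicate 2 (-0.97) and with equal sums (-0.89), and that of *Insig1* with quantile normalization (-0.93).

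The log2 response to LPS differed between genotypes in 5 of the 8 genes, and for all 5 it was lower in Pim1-/- cells. Among all genes 4.43% were called with a lower and 2.24% with a higher log2 response. *Sqle* went in opposite directions, up in WT (0.47, not called) and down in Pim1-/- cells (-1.12, called). The difference of the log2 responses, Pim1-/- minus WT, was -2.29 for *Ch25h* (-2.49 to -2.09, limma adjusted p = 3.36e-11). It was -1.58 for both *Sqle* and *Cyp51*, -1.57 for *Idi1* and -1.05 for *Hmgcs1* (limma adjusted p = 1.52e-08). *Insig1* (-0.62) and *Lss* (-0.58) were under the fold threshold with limma adjusted p of 4.40e-06 and 0.000566, and *Fdft1* had 0.00 (-0.12 to 0.13, limma adjusted p = 0.953). By an FDR under 0.05 alone 7 of the 8 log2 responses were lower and 0 higher, against 33.3% and 29.6% of all genes. The call of *Hmgcs1* was lost without WT untreated replicate 3 (-0.98), with equal sums (-0.89) and with quantile normalization (-0.60). The plot of fold changes shows the responses of both genotypes and the differences between them.

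**Figure D2:**
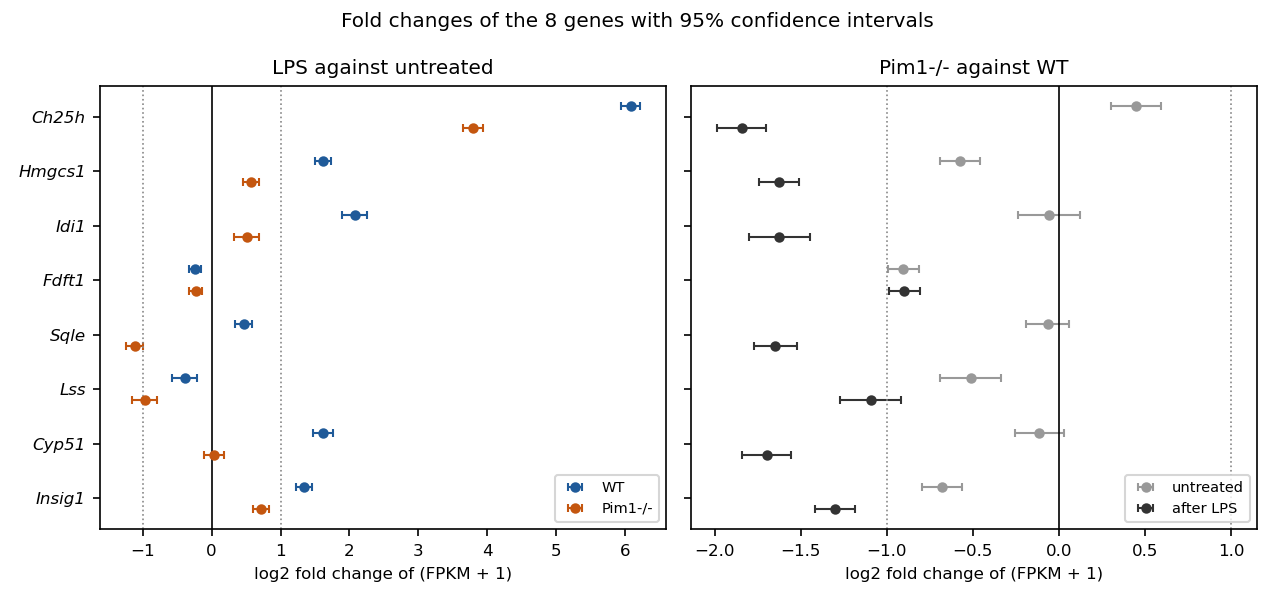
Log2 fold changes of (FPKM + 1) from limma with 95% confidence intervals, on the left for LPS against untreated cells in WT (blue) and Pim1-/- (orange) and on the right for Pim1-/- against WT without treatment (grey) and after LPS (black). Dotted lines mark 2-fold. After LPS 7 of 8 genes lie left of the lower line, and *Fdft1* lies at -0.90 in both states.

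The enzymes did not respond to LPS as a block. Over a list of 19 genes of cholesterol synthesis, summed levels were 381 to 424 FPKM in untreated WT, 318 to 322 in untreated Pim1-/-, 613 to 639 in LPS-treated WT and 265 to 273 FPKM in LPS-treated Pim1-/- libraries. The LPS-treated WT libraries were the highest and the LPS-treated Pim1-/- libraries the lowest in this sum, an order given for the deposited values only. The total FPKM of all genes was also highest in LPS-treated WT libraries. With equal sums the median log2 fold change of the 19 genes with LPS was -0.42 in WT cells (0.28 as deposited). In Pim1-/- cells it was -0.89 (-0.28 as deposited). In WT cells LPS raised 6 of the 19 genes (*Hmgcs1*, *Idi1*, *Fdps*, *Cyp51*, *Hsd17b7* and *Sc5d*) and lowered *Dhcr7*. *Dhcr7*, which makes cholesterol from 7-dehydrocholesterol, went from 10.2 to 1.51 FPKM, a log2 fold change of -2.16. In Pim1-/- cells LPS raised 0 of the 19 and lowered 3, *Acat2*, *Sqle* and *Dhcr7*. Of all genes, 20.1% were called higher and 14.7% lower with LPS in WT and 14.6% and 10.4% in Pim1-/- cells. With equal sums the calls were 1 higher and 7 lower in WT and 0 higher and 8 lower in Pim1-/- cells.

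The genotypes after LPS differed in 11 of the 19 genes, each lower in Pim1-/- cells (5.15% of all genes), with a median log2 difference of -1.14. *Sc5d*, a sterol desaturase, had the lowest value of the list, -1.83, with a mean of 47.4 FPKM in WT cells against 12.6 FPKM. *Lbr*, whose protein is both a sterol reductase and an anchor of chromatin at the nuclear lamina, was the only gene of the list with a higher mean in Pim1-/- cells (log2 difference 0.46, under 2-fold). The count of lower genes was 8 both with equal sums and with quantile normalization. No gene of the 19 was called between the untreated genotypes. The log2 response to LPS was lower in Pim1-/- cells for 9 of 19, with a median difference of -0.78, and higher for 0. Some of these changed direction at an FDR under 0.05 in both genotypes. They were *Acat2* (0.28 in WT and -1.16 in Pim1-/- cells), *Sqle* (0.47 and -1.12), *Msmo1* (0.67 and -0.52) and *Sc5d* (1.48 and -0.14). With equal sums the log2 response was lower for 7 (median -0.62) and with quantile normalization for 6 (-0.60). Among all genes, 4.43% had a lower and 2.24% a higher log2 response.

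**Figure D3:**
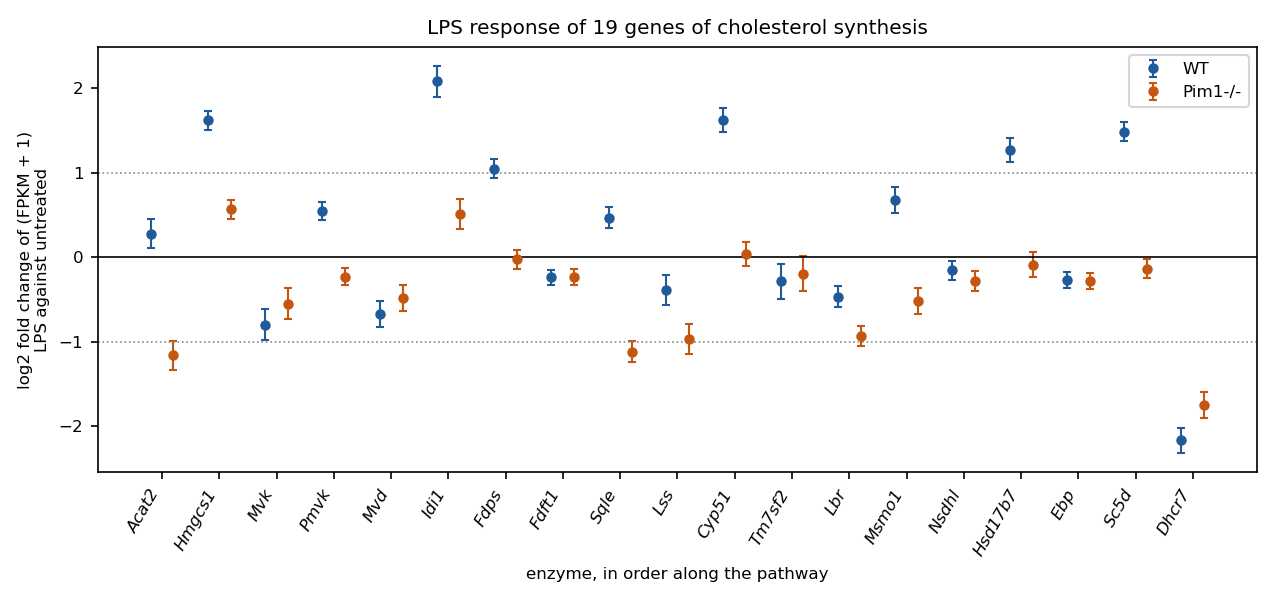
Log2 fold change of (FPKM + 1) with LPS in WT (blue) and Pim1-/- (orange) cells for 19 genes of cholesterol synthesis in order along the pathway, with 95% confidence intervals from limma and dotted lines at 2-fold. The WT point stands above the Pim1-/- point by more than 1 log2 unit in 9 genes, among them *Acat2*, *Hmgcs1*, *Idi1*, *Sqle*, *Cyp51* and *Sc5d*, and the points nearly coincide for *Fdft1*.

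Of 7 genes that control SREBP, *Srebf2*, which encodes SREBP-2 and is its own target, had means of 25.0 FPKM in untreated WT, 16.7 in untreated Pim1-/-, 60.5 in LPS-treated WT and 27.9 FPKM in LPS-treated Pim1-/- cells. It was called higher with LPS in WT cells (log2 fold change 1.24) and lower in Pim1-/- cells after LPS (-1.09). Both calls of *Srebf2* were lost with equal sums (0.45 and -0.89) and with quantile normalization (0.57 and -0.75). *Insig2*, the other INSIG gene, showed another order, with means of 9.93, 11.6, 18.1 and 31.0 FPKM in the same groups, and was called higher with LPS in Pim1-/- cells (1.34), a call lost with equal sums (0.72). *Srebf1*, which encodes the SREBP-1 proteins of fatty acid synthesis, had a log2 difference of -0.45 after LPS. In a list of 11 genes of fatty acid synthesis 9 were tested and 0 called between genotypes after LPS, with a median of -0.33. The other 2, *Scd1* and *Elovl6*, did not pass the filter on low values, with means after LPS of 0.169 (WT) and 0.062 FPKM (Pim1-/-) and of 0.639 and 0.134 FPKM. Between genotypes after LPS, 0 of 10 genes of the other isoprenoid branches were called, with a median of 0.24.

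Of 7 genes of sterol uptake and trafficking that were tested, *Stard4*, a sterol carrier, had means of 6.70 FPKM in untreated WT, 5.61 in untreated Pim1-/-, 7.39 in LPS-treated WT and 2.76 FPKM in LPS-treated Pim1-/- cells. It was lower in Pim1-/- cells after LPS by a log2 difference of -1.16, a call lost with equal sums (-0.95), and the remaining 6 were not called between genotypes after LPS. LPS lowered *Soat1*, *Npc1*, *Mylip* and *Lipa* in WT cells, genes of cholesterol storage, export from lysosomes, protein ubiquitination and cholesteryl ester breakdown. These are 4 of the 7, where 14.7% of all genes were called lower with LPS in WT cells. In Pim1-/- cells their log2 fold changes with LPS were -1.38, -0.67, -0.63 and -0.51, and only *Soat1* was called. Of 5 tested genes of oxysterol handling, *Cyp27a1*, which makes 27-hydroxycholesterol, had means of 31.6 (WT) and 3.92 FPKM (Pim1-/-) without LPS and 9.58 and 2.87 FPKM with it. *Cyp27a1* was thus called lower in Pim1-/- cells in both states (log2 differences -2.73 and -1.46), whereas *Ch25h* was lower after LPS and not without it. *Gpr183*, the receptor of an oxysterol made from 25-hydroxycholesterol, fell with LPS in both genotypes (-2.23 and -2.11), and *Cyp7b1*, which makes that ligand, did not pass the filter on low values.

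*Ch25h* and the enzymes shared the order of the LPS-treated genotypes and not that of the untreated ones. The mean log2(FPKM + 1) of the 6 enzymes was 4.36 to 4.56 in untreated WT, 4.07 to 4.11 in untreated Pim1-/-, 5.29 to 5.37 in LPS-treated WT and 3.87 to 3.91 in LPS-treated Pim1-/- libraries. The Pim1-/- libraries with LPS were the lowest in this mean and the next to highest for *Ch25h*. The enzymes went different ways under the mean, since by group means LPS-treated Pim1-/- cells were the lowest for *Sqle*, *Fdft1* and *Lss* and untreated Pim1-/- cells for *Hmgcs1*, *Idi1* and *Cyp51*. By the deposited values, the libraries with the most *Ch25h*, LPS-treated WT, were also those with the highest enzyme mean. Within Pim1-/- cells the rise of *Ch25h* with LPS came with a lower enzyme mean. This lower mean was made of lower values of *Sqle*, *Lss* and *Fdft1* and higher or level values of *Hmgcs1*, *Idi1* and *Cyp51*. With equal sums the median log2 fold change of the 6 enzymes with LPS was 0.26 in WT (1.04 as deposited) and -0.73 in Pim1-/- cells (-0.10 as deposited). In Pim1-/- cells *Hmgcs1* (-0.07), *Idi1* (-0.12) and *Cyp51* (-0.58) then had negative log2 fold changes too. With 4 groups of 3 libraries no relation over all libraries was tested. As a description over 12 libraries that share groups and treatment, Pearson's r with *Ch25h* on log2(FPKM + 1) was 0.88 for *Idi1*, 0.81 for *Insig1*, 0.80 for *Hmgcs1*, 0.75 for *Cyp51*, -0.02 for *Sqle*, -0.11 for *Fdft1* and -0.43 for *Lss*.

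**Figure D4:**
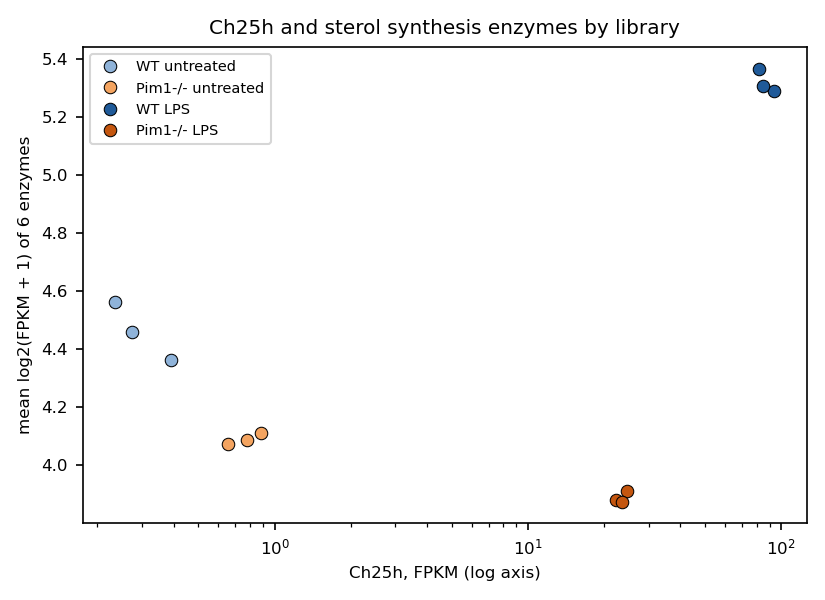
Mean log2(FPKM + 1) of the 6 enzymes (vertical axis) against the level of *Ch25h* in FPKM (horizontal log axis) for the 12 libraries, coloured by group. The LPS-treated WT libraries stand alone at the upper right, at 5.29 to 5.37 on the vertical axis, and the LPS-treated Pim1-/- libraries at the bottom, at 3.87 to 3.91.

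The 5 genes whose pattern was most like that of *Ch25h*, by Pearson's r over the 12 libraries among 7292 genes whose mean reached 5 FPKM, were *Gpd2*, *St7*, *Rnf4*, *Lck* and *Tnip3*, each with r above 0.998. *Tnip3* had means of 4.23 (WT) and 5.29 FPKM (Pim1-/-) without LPS and 575 and 141 FPKM with it. The 5 most like the mean of the 6 enzymes were *Pid1*, *Naaa*, *Ggta1*, *Hyou1* and *Xbp1*, with r of 0.99. *Xbp1* had means of 95.7 (WT) and 71.0 FPKM (Pim1-/-) without LPS and 163 and 70.2 FPKM with it. None of the 8 genes was among these 10.

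Other scalings moved the LPS responses more than the differences between genotypes. Of the genes called with LPS in WT cells, 57.8% were higher as deposited, 47.6% with quantile normalization and 24.3% with equal sums. In Pim1-/- cells the higher share went from 58.4% to 25.7% with equal sums, between genotypes after LPS from 40.5% to 60.1%, and for the difference in LPS response from 33.6% to 46.0%. The median of all genes between genotypes after LPS moved from -0.03 to 0.12 with equal sums, and the median of the 6 enzymes from -1.62 to -1.42, and with quantile normalization these medians were -0.01 and -1.22. Each of the 8 genes had a lower value in Pim1-/- cells after LPS under each of the 4 scalings, with *Fdft1* nearest to 0 (-0.58 with quantile normalization). The plot of the LPS responses under 4 scalings shows the shift gene by gene.

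**Figure D5:**
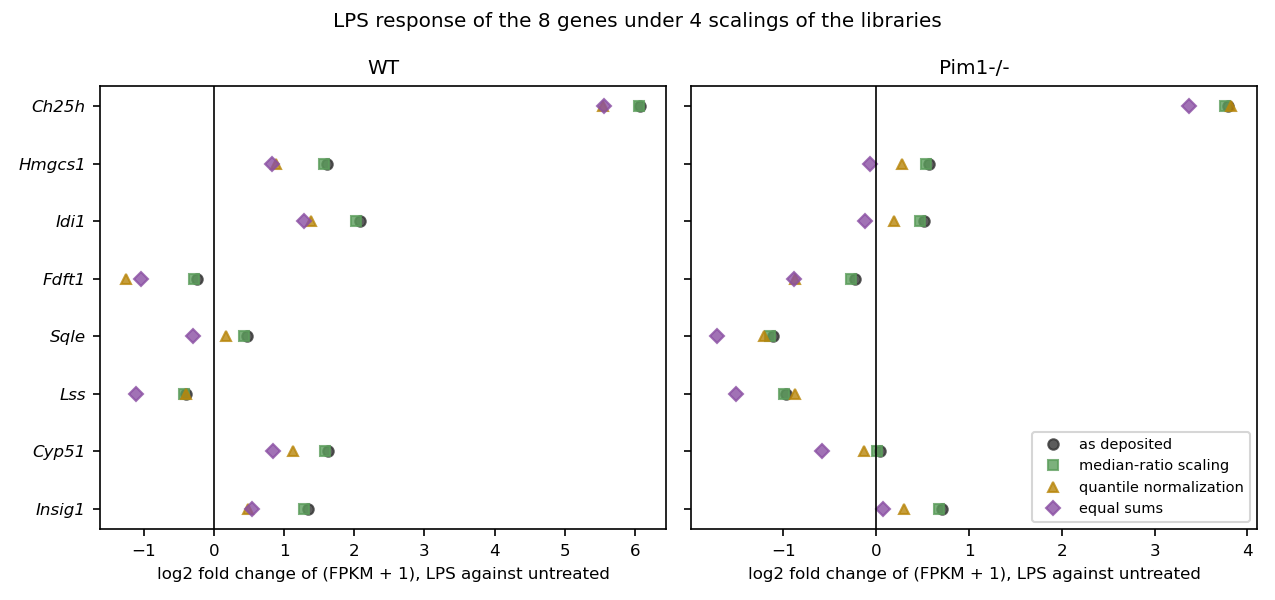
Log2 fold change of (FPKM + 1) with LPS in WT (left) and Pim1-/- (right) cells for the 8 genes, with the values as deposited (circles), median-ratio scaling (squares), quantile normalization (triangles) and equal sums (diamonds). Equal sums move every gene to the left, and *Sqle* in WT and *Hmgcs1*, *Idi1* and *Cyp51* in Pim1-/- cells cross 0.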

How the data were processed

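RNA from 12 libraries of WT and Pim1-/- BMDMs was sequenced from stranded mRNA libraries. Per the labels' processing notes, the authors used bcl2fastq 2.20.0.422, cutadapt 1.18, TopHat2 2.0.13 and Cuffdiff 2.2.1 with the mouse build mm10, whereas the methods name rat rn5. The deposited values were read as FPKM from this use of Cuffdiff, since no header names a unit. Neither how libraries were normalized nor which annotation was used is given in the sources used here.

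The filter asked for 1 FPKM or more in 3 libraries or more. limma 3.58.1 in R 4.3.3 then fitted log2(FPKM + 1) to the 4 groups, with a mean-variance trend and Benjamini-Hochberg adjustment. A call needed more than 2-fold, p under 0.05 and an FDR under 0.1. The script was tested on simulated data. The counts of fragments were estimated from low FPKM values and cover counting error only. Of these values 65.9% to 75.3% lay within 0.05 of a whole multiple of 1 fragment. The depth and fragment length were chosen to make this share high, so it is no independent check. Motifs were searched in RefSeq promoters. Tables used pandas 2.3.3 and numpy 2.4.6 under Python 3.11.15, and figures matplotlib 3.10.9.

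The genes described and the gene lists were chosen with earlier results of these data known. Named genes are the 8 genes, *Pim1*, genes of the sterol lists (some of their genes are not reported here), of each other list the 2 with the largest change in each direction, and the 5 genes most like *Ch25h* and the enzyme mean. Markers listed at 0, *Lyz2*, *Ctsb* and *Akap9* were added after their values were seen. Alternatives were a pseudocount of 0.1, no filter or 5 FPKM, 3 other scalings, only the groups compared, the replicate number as a block, limma without a trend, an FDR under 0.05 alone and leaving out each library.

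Groups share replicate numbers. The deviations of same-numbered libraries from their group means correlated over 3646 genes at 0.43 to 0.68 between untreated and LPS-treated Pim1-/- and at 0.33 to 0.46 between untreated WT and Pim1-/- libraries, so the numbers pair these, by the values and not by any label. They did not in the other comparisons (-0.10 to 0.19 and 0.02 to 0.37).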

Additional observations from a re-analysis of the deposited data

Results flagged for a closer look

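The LPS response of 11 genes of the sterol lists differed between genotypes by more than 2-fold in the limma test of the difference itself, given here as the log2 response in Pim1-/- minus that in WT cells. Among the 8 genes these were *Ch25h* (-2.29), *Cyp51* (-1.58), *Sqle* (-1.58), *Idi1* (-1.57) and *Hmgcs1* (-1.05). Other synthesis genes were *Sc5d* (-1.62), *Acat2* (-1.44), *Hsd17b7* (-1.35), *Msmo1* (-1.19) and *Fdps* (-1.07). The calls of *Hmgcs1* and *Fdps* were lost with equal sums (-0.89 and -0.92) and with quantile normalization (-0.60 and -0.70), and that of *Msmo1* with quantile normalization (-0.86). *Cyp27a1* had 1.27, the only one of the 11 with a positive value, from a level in untreated Pim1-/- cells far below that in untreated WT cells.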

How the results depend on the processing

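Each result was refitted under each alternative. Of 872 values of single genes 825 kept their direction and their side of the thresholds and 11 changed direction, and of 218 counts of called genes 13 moved by over 1.5 times. The direction changed for *Cyp51* with LPS in Pim1-/- cells under quantile normalization (-0.14) and equal sums (-0.58), for *Hmgcs1* (-0.066) and *Idi1* (-0.12) there and *Sqle* with LPS in WT cells (-0.30) under equal sums. Leaving out each library put the difference in LPS response of *Fdft1* between -0.025 and 0.035 and the untreated difference of *Idi1* between -0.14 and 0.034, the latter above 0 only without WT untreated replicate 2 (0.034). Between untreated genotypes 1 of the 8 genes and 1 synthesis gene were called with a pseudocount of 0.1 (*Ch25h* among the 8), and 1 synthesis gene with quantile normalization and with equal sums, against 0. For LPS in Pim1-/- cells 5 synthesis genes were called with a pseudocount of 0.1 and with quantile normalization and 8 with equal sums, against 3. By an FDR under 0.05 alone, LPS in WT cells called 8 of the 8 genes and 19 synthesis genes, LPS in Pim1-/- cells 7 and 15, and the untreated comparison 5 and 13. With the replicate block 7 of the 8 genes were called between genotypes after LPS, as without it, and the block changed no call of the 8 genes in any comparison. The fit of only the groups compared could not give the difference in response. FPKM from few fragments limits *Ch25h* in untreated cells. Where a value moved, the cause was not tested.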

Other observations

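Among 14 interferon targets other than *Ch25h*, all 14 were called higher with LPS in both genotypes, against 20.1% (WT) and 14.6% (Pim1-/-) of all genes. After LPS the median log2 difference of the 14 between genotypes was -0.65. In Pim1-/- cells 4 of them were called lower after LPS and 0 higher, against 5.15% and 3.51% of all genes. Of these *Mx1*, an antiviral GTPase, had after LPS a mean of 897 FPKM in WT cells against 276 FPKM (log2 difference -1.70), and *Mx2* had 245 and 91.8 FPKM (-1.41), both nearer to 0 than the -1.84 of *Ch25h*. For the difference in LPS response 4 of the 14 had a larger response in Pim1-/- cells and 0 a smaller one. Of all genes 2.24% had a higher and 4.43% a lower log2 response. The 4 were led by *Ifit3* with 2.34 and *Ifit1* with 1.71, whereas *Ch25h* had -2.29. In untreated cells 8 of the 14 were called lower in Pim1-/- cells, against 3.37% of all genes. Among them were *Ifit3* (-2.54) and *Ifit1* (-1.98), where *Ch25h* was at 0.45.

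In the isoprenoid branches beside sterols, *Pdss1*, which makes the side chain of coenzyme Q, had means of 0.82 (WT) and 2.07 FPKM (Pim1-/-) without LPS and 11.5 and 6.82 FPKM with it. Its response was smaller in Pim1-/- cells by -1.44 on the log2 scale. It was the only one of 10 genes called there, where 4.43% of all genes were called lower and 2.24% higher.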
